A study of Mus musculus with 12 samples.

Results

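Lymphoid priming is the low-level use of lymphoid genes in blood-forming progenitors that can still make other lineages. The genes described here are 7 early lymphoid genes, Dntt, Rag1, Rag2, Il7r, Ccr9, Satb1 and Ikzf1, taken by symbol from the count files, where all 7 were found among 23383 genes. They were measured by RNA-seq in sorted bone marrow cells of C57BL/6 mice, 12 libraries in 4 groups of 3. Enhancer-null mice are homozygous for loss of the +42 kb enhancer of Cebpa, the gene of a transcription factor of neutrophil formation, and wild-type mice carry it. From each genotype, common myeloid progenitors (CMP) and LSK cells were sorted; the labels call LSK cells hematopoietic stem cells, and the gate also holds multipotent progenitors. The groups were enhancer-null CMP (labels numbered 1, 2 and 7), wild-type CMP (1, 6 and 8), enhancer-null LSK (1, 2 and 7) and wild-type LSK (1, 6 and 8). No age, treatment or sort gate beyond these names is given in the labels. The labels do not say that the libraries of a group came from separate animals, so every p-value measures only the spread between these libraries.

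Lymphocytes build their antigen receptors by V(D)J recombination. The RAG1 and RAG2 proteins cut the receptor genes together, and terminal deoxynucleotidyl transferase, the product of Dntt, adds bases at the joints. The interleukin-7 receptor alpha chain (Il7r) carries survival and growth signals in early lymphoid cells, and CCR9 is a chemokine receptor that guides progenitors to the thymus. Ikaros (Ikzf1) and SATB1 are DNA-binding proteins that shape chromatin and take part in early lymphoid development. In mouse marrow, transcripts such as those of Dntt and Rag1 are known from a subset of LSK cells that leans towards the lymphoid lineages.

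Dntt had the highest mean level per length of the 7 genes over the 12 libraries, and it was higher in all 3 enhancer-null LSK libraries than in any wild-type LSK library. Ccr9 was nearly absent from enhancer-null CMP, with 3 counts in the 3 libraries against 219 in wild-type CMP. In neither genotype comparison did any of the 7 genes pass the test over all genes (edgeR's quasi-likelihood test, Benjamini-Hochberg adjusted p under 0.05). Of all genes tested, 0.589% passed between the genotypes in CMP and 0.103% in LSK. Ikzf1 was at a similar level in all 12 libraries. Rag2 was read at 0 counts in some libraries and at clear levels in others of the same group. Rag1 was scarce throughout, at 2.55 CPM or less in every library.

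The libraries held 6170491 to 49149674 counts on genes. A floor of 3 counts corresponded to 0.061 to 0.486 CPM (counts scaled by library size), so that a 0 allows a level up to the floor of its library, for counting error only. Of the 2419 genes with a mean of 5 to 20 CPM, 47.7% had a 0 in at least 1 library and 8.23% in at least 3 libraries. Of the 2482 genes at or above 100 CPM, 0.0806% had a 0. Cebpa, which checks the genotype labels, had 0, 0.147 and 0 CPM in enhancer-null CMP against 17.3, 15 and 30 CPM in wild-type CMP, and 0.0768, 0 and 0.302 CPM in enhancer-null LSK against 6.51, 8.24 and 2.46 CPM in wild-type LSK. Even Cebpa did not pass the edgeR test over all genes. Its log2 fold change was -8.34 in CMP (adjusted p = 0.0817) and -5.24 in LSK (adjusted p = 0.499). Failing to pass therefore does not show that a gene is unchanged. The LSK marker Ly6a ranged over 143.7 to 197.8 CPM in enhancer-null LSK, 133.9 to 176.0 CPM in wild-type LSK, 0.182 to 12.8 CPM in enhancer-null CMP and 3.23 to 5.68 CPM in wild-type CMP, as the cell type labels say. Replicates 1 of both wild-type groups stood apart in late neutrophil transcripts, with 2098.8 CPM over 8 markers in CMP and 1346.0 CPM in LSK. The other wild-type libraries had 25.9 and 246.9 CPM in CMP and 125.5 and 254.7 CPM in LSK, where the enhancer-null libraries had 3.81 to 27.2 CPM in CMP and 7.22 to 26.8 CPM in LSK. Wild-type CMP replicate 6 came with 23456 gene symbols in its file, the other 11 libraries with 24420. By sex-linked transcripts, the enhancer-null libraries 1 and 2 and the wild-type libraries 1 came from males and the others from females, so that sex and genotype were not balanced.

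Start sites are shown for Dntt and Ccr9, whose genotype groups did not overlap in LSK and in CMP, respectively, though neither passed the test. The start region that Rag1 shares with a neighbour is shown too. Each window holds the 300 bases from 250 before to 50 after the RefSeq start (build GRCm38.p6, in the direction of transcription). The window of Dntt is chr19:41029025-41029324 on the plus strand, that of Ccr9 chr9:123766961-123767260 on the plus strand and that of Rag1 chr2:101649483-101649782 on the minus strand. Capitals mark matches to 3 short motifs searched on both strands, TTGCNNAA for C/EBP factors, the E box CAGNTG bound by bHLH factors and TGGGAA, the core that Ikaros binds.
Dntt: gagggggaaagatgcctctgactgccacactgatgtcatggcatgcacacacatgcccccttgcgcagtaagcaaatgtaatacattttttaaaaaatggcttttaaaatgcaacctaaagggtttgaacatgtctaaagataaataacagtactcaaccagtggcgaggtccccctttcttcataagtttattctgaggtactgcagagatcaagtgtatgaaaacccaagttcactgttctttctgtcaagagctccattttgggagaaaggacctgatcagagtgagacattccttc
Ccr9: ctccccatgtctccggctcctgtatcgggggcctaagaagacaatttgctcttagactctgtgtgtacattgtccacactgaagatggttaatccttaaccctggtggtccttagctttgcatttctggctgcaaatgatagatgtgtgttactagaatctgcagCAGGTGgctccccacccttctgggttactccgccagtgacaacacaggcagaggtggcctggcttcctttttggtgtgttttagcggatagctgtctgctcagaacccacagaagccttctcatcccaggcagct
Rag1: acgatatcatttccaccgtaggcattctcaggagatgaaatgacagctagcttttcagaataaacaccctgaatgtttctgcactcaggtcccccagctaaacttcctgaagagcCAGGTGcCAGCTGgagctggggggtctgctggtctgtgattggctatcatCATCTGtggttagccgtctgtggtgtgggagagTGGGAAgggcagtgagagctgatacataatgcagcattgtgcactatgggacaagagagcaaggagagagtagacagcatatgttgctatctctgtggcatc
The Dntt window held no match. The Ccr9 window held an E box, CAGGTG, 85 bases before the start. This RefSeq start lies inside the GENCODE span of Ccr9 (123678439 to 123784330), downstream of the GENCODE start, whose sequence is not shown. The Rag1 window held 3 E boxes. CAGGTG lay 135 bases before the start and CAGCTG 128 bases before it. CATCTG, an E box on the opposite strand, lay 85 bases before it. The Ikaros core was 52 bases before the start.

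All 7 genes had an entry in the RefSeq table, with 12 start windows in all, since Satb1 has 5 and Ikzf1 has 2. An E box was found in 6 of these windows, the Ikaros core in 3 and the C/EBP motif in 1, that of Il7r, as TTGCTCAA 174 bases before its start. Among all 32851 windows of the table, 51.4% held an E box, 25.6% the Ikaros core and 10.8% the C/EBP motif. Such matches are letters only, and the files hold no binding data.

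Compared per length of transcript, the genes fell into 2 tiers over the 12 libraries. Dntt averaged 298.9 CPM per kb, Satb1 50.5 and Ikzf1 41.5. Il7r averaged 4.1 CPM per kb, Rag2 3.27, Ccr9 1.33 and Rag1 0.112. Dntt, Satb1, Ikzf1 and Il7r had counts in all 12 libraries, whereas Rag1 was at 0 in 5 libraries, Rag2 in 3 and Ccr9 in 2. Across the 12 libraries the coefficient of variation was 15.7% for Ikzf1, 46.5% for Satb1 and 74.4% for Dntt, and it reached 125.2% for Ccr9.

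**Figure D1:**
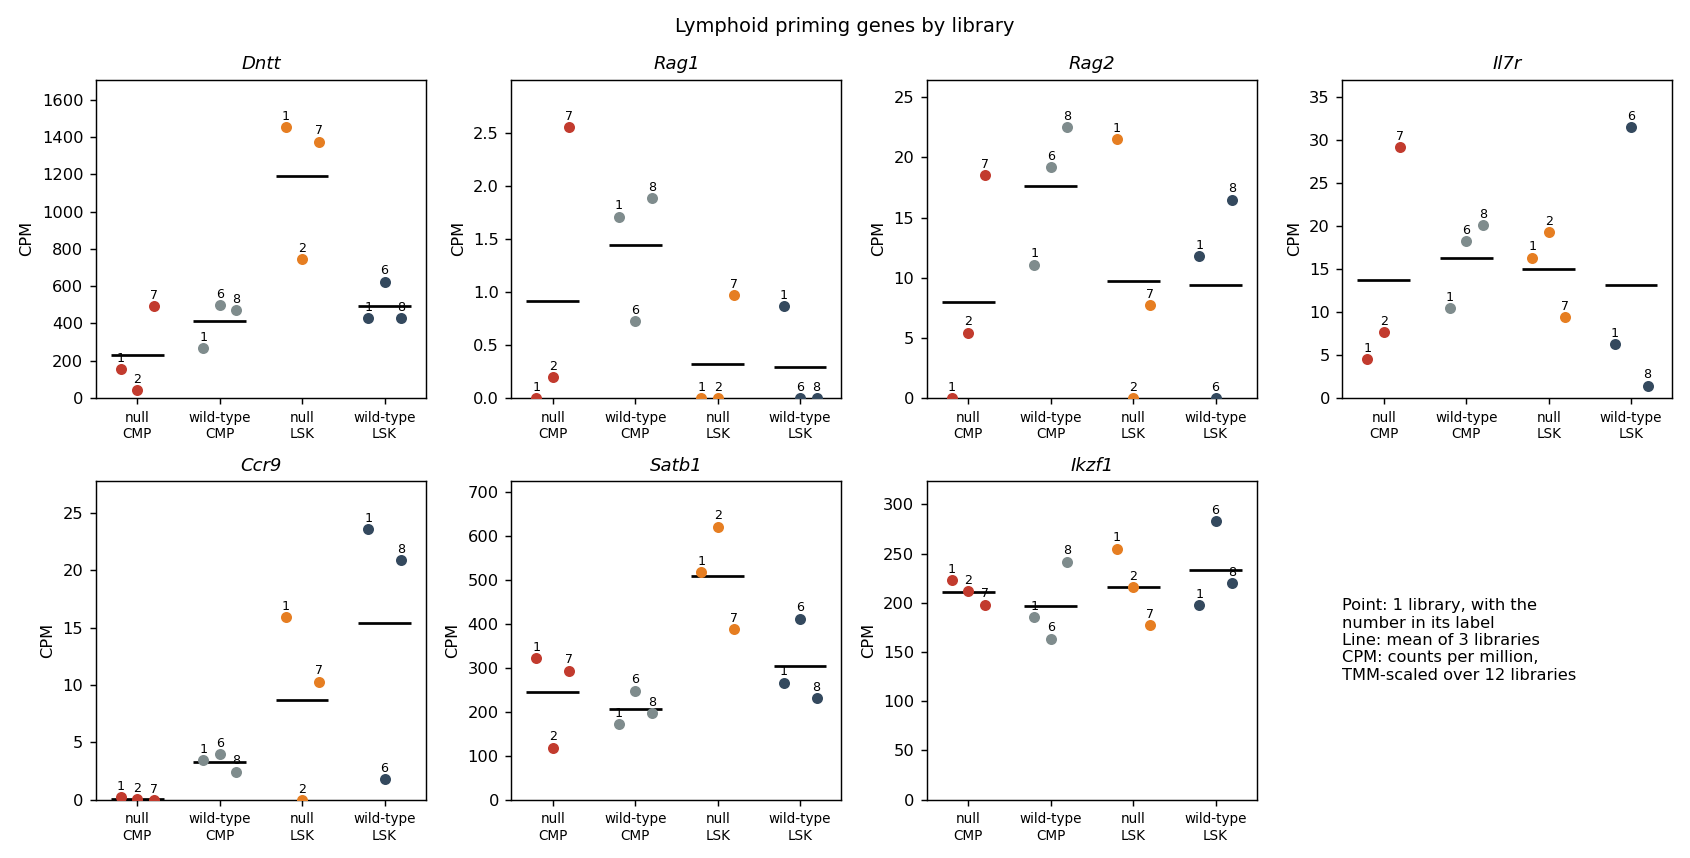
Level of each of the 7 genes in every library, in CPM scaled by TMM over 12 libraries on a linear axis that starts at 0. Points are libraries with the number from their labels, and lines are means of 3. The 3 enhancer-null LSK libraries stand above the wild-type LSK libraries for Dntt, and the enhancer-null CMP libraries lie at or near 0 for Ccr9.

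Dntt (chromosome 19, 41029275 to 41059525, plus strand, mm10) encodes the template-free DNA polymerase of receptor joints. In LSK it had 1454.3, 744.8 and 1376.0 CPM in the enhancer-null libraries 1, 2 and 7, against 427.8, 624.8 and 427.9 CPM in the wild-type libraries 1, 6 and 8. The groups did not overlap, and the lowest enhancer-null library stood close to the highest wild-type one. The means were 1191.7 ± 389.0 CPM and 493.5 ± 113.8 CPM (SD, n = 3 each), a log2 fold change of 1.30 ± 0.27 (SE) with a 95% interval of 0.66 to 1.93. By p, Dntt ranked 97 of 11619 genes, and it did not pass over all genes (adjusted p = 0.201, and 0.00134 to 0.682 over 11 alternatives). DESeq2 was the one alternative that called it (adjusted p = 0.00134, log2 fold change 1.28). In male libraries the Dntt level was 1454.3 and 744.8 CPM in enhancer-null LSK against 427.8 CPM in wild-type LSK, and in female libraries at 1376.0 CPM against 624.8 and 427.9 CPM. Without wild-type LSK replicate 1, the library high in neutrophil transcripts, the log2 fold change was 1.20 (adjusted p = 0.465).

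In CMP, Dntt had 156.8, 43.7 and 494.3 CPM in the enhancer-null libraries against 267.6, 498.0 and 471.2 CPM in the wild-type libraries. The groups overlapped, because enhancer-null replicate 7 stood with the upper wild-type libraries while the other two were lower than all of them. The means were 231.6 ± 234.4 CPM and 412.3 ± 126.0 CPM, and the log2 fold change was -0.82 ± 0.74 (95% interval -2.55 to 0.91, adjusted p = 0.757). The genotype effect in CMP minus that in LSK was -2.08 ± 0.86 on the log2 scale (95% interval -3.94 to -0.21, adjusted p = 0.592), not past the test over all genes. Within enhancer-null mice, Dntt was lower in every CMP library than in any LSK library, with a log2 fold change of -2.36 ± 0.76 for CMP over LSK (95% interval -4.14 to -0.58, adjusted p = 0.577). Within wild-type mice the 2 cell types overlapped, at -0.21 ± 0.27 for CMP over LSK (adjusted p = 0.729).
In these bulk libraries, fewer cells that make a transcript and less transcript per cell cannot be told apart, here or for any gene below.

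Rag1 and Rag2 (chromosome 2, 101638282 to 101649501 on the minus strand and 101624718 to 101632529 on the plus strand) lie tail to tail, 5753 bp apart. Rag1 was scarce everywhere. It had 0, 4 and 42 counts in enhancer-null CMP, 54, 13 and 29 in wild-type CMP, 0, 0 and 48 in enhancer-null LSK and 30, 0 and 0 in wild-type LSK. Wild-type CMP was the only group with Rag1 counts in all 3 libraries. Its mean was 0.916 ± 1.42 CPM in enhancer-null CMP against 1.44 ± 0.623 CPM in wild-type CMP, and 0.322 ± 0.558 CPM in enhancer-null LSK against 0.288 ± 0.499 CPM in wild-type LSK. The fit gave a log2 fold change of -0.62 ± 1.87 between genotypes in CMP (adjusted p = 0.94) and 2.32 ± 2.05 for CMP over LSK in wild-type mice (adjusted p = 0.59). In LSK, and between the enhancer-null cell types, Rag1 did not reach the count filter and was not tested.

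Rag2 was read at 0, 5.44 and 18.5 CPM in enhancer-null CMP, against 11.1, 19.2 and 22.5 CPM in wild-type CMP. In LSK it stood at 21.5, 0 and 7.75 CPM in the enhancer-null libraries, against 11.8, 0 and 16.5 CPM in the wild-type libraries. A single library in each of 3 groups was at 0 while the others of its group ran from 5.44 to 21.5 CPM, and all genotype groups overlapped. The floors of those 3 libraries were 0.334 CPM (enhancer-null CMP replicate 1), 0.486 CPM (enhancer-null LSK replicate 2) and 0.203 CPM (wild-type LSK replicate 6). The log2 fold change between genotypes was -1.13 ± 1.55 in CMP (95% interval -4.73 to 2.48, adjusted p = 0.851) and 0.07 ± 2.08 in LSK (95% interval -4.78 to 4.93, adjusted p = 0.994). These intervals leave room for a change of more than 1 log2 unit either way.

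Both genes overlap another gene, B230118H07Rik (chromosome 2, 101560781 to 101649532, minus strand), which was looked up after the values of Rag2 were seen. Its annotated start is the same base (101649532) as the RefSeq start of Rag1 on which the window printed above is set, and it lies 31 bp upstream of the GENCODE start of Rag1 given here. It shares 80 exonic bp with Rag1 on the same strand and 208 exonic bp with Rag2 on the opposite strand. The strand setting of the counting is not given in the sources used here, so reads of Rag2 and B230118H07Rik in the shared bases cannot be told apart. B230118H07Rik had 12.5, 13.9 and 32.1 CPM in enhancer-null CMP, 30.8, 20.5 and 9.32 CPM in wild-type CMP, 35.4, 22.5 and 24.7 CPM in enhancer-null LSK and 37, 51.3 and 32.9 CPM in wild-type LSK. It was present in all 12 libraries, and in the 3 libraries with Rag2 at 0 it stood at 12.5, 22.5 and 51.3 CPM.

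**Figure D2:**
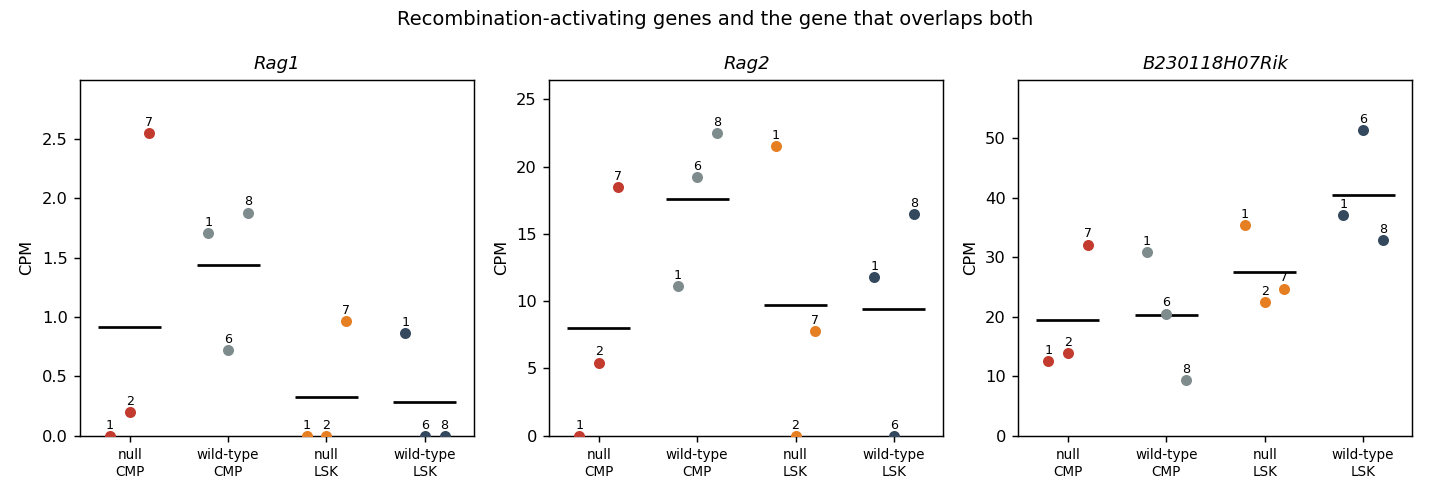
CPM of Rag1, Rag2 and the overlapping gene B230118H07Rik in every library, on linear axes that start at 0 and differ in scale. Points are libraries with the number from their labels, and lines are means of 3. Rag2 is at 0 in 3 libraries, in which B230118H07Rik has 12.5, 22.5 and 51.3 CPM.

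Il7r (chromosome 15, 9505788 to 9530176, minus strand) had 4.5, 7.64 and 29.1 CPM in enhancer-null CMP against 10.4, 18.2 and 20.1 CPM in wild-type CMP. The LSK levels were 16.3, 19.3 and 9.36 CPM in the enhancer-null libraries against 6.28, 31.5 and 1.45 CPM in the wild-type libraries. The groups overlapped in both cell types, and the wild-type LSK libraries alone ran from 1.45 to 31.5 CPM. The group means lay between 13.1 and 16.3 CPM. The log2 fold change was -0.23 ± 0.90 in CMP (95% interval -2.33 to 1.87, adjusted p = 0.956) and 0.22 ± 1.09 in LSK (95% interval -2.33 to 2.78, adjusted p = 0.973).

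Of 6 partners of the receptor and of its signalling, none passed between the genotypes in either cell type, all 6 had positive log2 fold changes in CMP (median 0.69) and 4 of 6 in LSK (median 0.37). Of all genes tested, 48.8% had positive log2 fold changes in CMP and 49.3% in LSK. The smallest p in CMP belonged to Il2rg, the common gamma chain that pairs with the interleukin-7 receptor alpha chain. Il2rg had 218.0, 115.5 and 221.7 CPM in enhancer-null CMP against 56.5, 50.6 and 60 CPM in wild-type CMP, with no overlap (log2 fold change 1.74 ± 0.30, adjusted p = 0.0574). In LSK it had 247.4, 193.2 and 269.1 CPM in the enhancer-null libraries against 220.5, 98.6 and 115.3 CPM in the wild-type libraries, with overlap (0.73 ± 0.32). In LSK the smallest p belonged to Jak3, the kinase bound to the gamma chain, at 319.4, 262.4 and 300.2 CPM in the enhancer-null libraries against 219.2, 161.4 and 231.5 CPM in the wild-type libraries, with no overlap (0.55 ± 0.19, adjusted p = 0.499). In CMP its levels were 235.3, 124.7 and 166.3 CPM in the enhancer-null libraries against 61.3, 81.9 and 66.8 CPM in the wild-type libraries (log2 fold change 1.34 ± 0.29, adjusted p = 0.105). Crlf2, a receptor chain gene of the same list named after its values were seen, went the other way in LSK. It had 21.6, 28 and 38 CPM in enhancer-null LSK against 53.5, 110.8 and 43.8 CPM in wild-type LSK. These groups did not overlap (-1.22 ± 0.45, adjusted p = 0.559). For CMP over LSK in wild-type mice Jak3 fell by 1.49 on the log2 scale (adjusted p = 0.0175), the one gene of the 6 to pass there, and that call was lost without any 1 wild-type library other than LSK replicate 6 (adjusted p up to 0.0786).

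Ccr9 (chromosome 9, 123678439 to 123784330, plus strand) had 2, 1 and 0 counts in enhancer-null CMP against 109, 72 and 38 counts in wild-type CMP. In CPM these were 0.231, 0.049 and 0 against 3.46, 4.01 and 2.46. Every enhancer-null CMP library was at or below its floor and the wild-type libraries lay close together above theirs, so the groups did not overlap. Relative to depth, the counts were 51.3 times as high in wild-type as in enhancer-null CMP, with a 95% counting interval of 17.3 to 251. This counting interval pools the libraries of each group and leaves out the spread between them. The fitted log2 fold change was -5.18 ± 1.91 (95% interval -9.62 to -0.74), and it did not pass over all genes (adjusted p = 0.32, and 0.00183 to 0.748 over 11 alternatives). DESeq2 was the one alternative that called it (adjusted p = 0.00183, log2 fold change -5.41). The value was -5.11 without wild-type CMP replicate 1 and -4.98 without wild-type CMP replicate 6, whose file lists other genes. On the opposite strand Ccr9 shares 1932 exonic bp with AC165425.1 and 22 with Slc6a20a. On the same strand it shares 269 with Gm17200. The strand setting of the counting is not given, so reads in these shared bases cannot be assigned to Ccr9 alone.

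In LSK, Ccr9 had 15.9, 0 and 10.3 CPM in the enhancer-null libraries against 23.6, 1.82 and 20.9 CPM in the wild-type libraries. Both groups held a low library (replicate 2 of the enhancer-null and replicate 6 of the wild-type mice, the same libraries in which Rag2 was at 0), and they overlapped. The means were 8.74 ± 8.07 CPM and 15.4 ± 11.9 CPM, at a log2 fold change of -0.80 ± 1.61 (adjusted p = 0.933). The genotype effect in CMP minus that in LSK was -4.41 ± 2.44 (adjusted p = 0.736), so that a difference between the cell types was not shown. Between cell types, Ccr9 had 3 counts in enhancer-null CMP against 720 in enhancer-null LSK, and it did not reach the count filter there. Relative to depth, the ratio was 159 in favour of LSK (95% counting interval 54.3 to 774). That interval pools the libraries of a group and leaves out the spread between them. Enhancer-null LSK replicate 7 held 513 of the 720 counts and replicate 2 held 0, so the groups overlapped. In wild-type mice the log2 fold change for CMP over LSK was -2.16 ± 1.07 (adjusted p = 0.313). Without wild-type LSK replicate 6, it was -2.68 and passed (adjusted p = 0.041).

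Markers of other cells were summed in the same libraries. B cell markers summed to 31.2 to 75.2 CPM over 13 genes in enhancer-null CMP against 28.7 to 160.1 CPM in wild-type CMP, with the highest value in replicate 1. Pax5, which defines B cells, was at 0 in all enhancer-null CMP, all enhancer-null LSK and all wild-type LSK libraries, and Ms4a1, the B cell gene with the smallest p in CMP, was at 0, 0 and 0 CPM in enhancer-null CMP against 16, 1.17 and 5.18 CPM in wild-type CMP. T and NK cell markers summed to 251.6 to 479.0 CPM over 15 genes in enhancer-null CMP against 76.7 to 170.7 CPM in wild-type CMP, and to 374.1 to 429.7 CPM in enhancer-null LSK against 176.5 to 234.0 CPM in wild-type LSK. Most of that sum was Nkg7, a granule membrane protein gene, at 264.2, 197.0 and 318.8 CPM in enhancer-null CMP against 128.0, 62.5 and 64.1 CPM in wild-type CMP (log2 fold change 1.63 ± 0.34, adjusted p = 0.0978). Lck, a kinase of T cell receptor signalling named after its values were seen, had 61.1, 50 and 159.5 CPM in enhancer-null CMP against 25.8, 27.9 and 8.67 CPM in wild-type CMP (2.13 ± 0.62, adjusted p = 0.225). In LSK, Nkg7, Lck, Cd247, Zap70 and Klrd1 were each higher in all 3 enhancer-null than in all 3 wild-type libraries, and none passed (adjusted p 0.23 to 0.664). Of all genes tested in LSK, 8.65% were higher in this way. These genes were named after their values were seen. Of the 15 listed, 8 were tested in LSK, 6 with positive and 2 with negative log2 fold changes (Cd5 at -3.18 and Cd4 at -0.62). Cd3e, Cd8b1 and Cd2 were at 0 in all enhancer-null CMP libraries, Cd3d and Cd8b1 in all enhancer-null LSK libraries and Ncr1 in all wild-type LSK libraries, while no gene of the list was at 0 throughout wild-type CMP. Plasmacytoid dendritic cell markers summed to 136.5 to 187.4 CPM over 6 genes in enhancer-null CMP against 153.5 to 257.3 CPM in wild-type CMP, and to 249.1 to 294.1 CPM in enhancer-null LSK against 247.4 to 312.4 CPM in wild-type LSK. Bst2 had the smallest p of these in CMP, at 25.7, 48.7 and 25 CPM in the enhancer-null libraries against 110.7, 76.1 and 61.8 CPM in the wild-type libraries (-1.31 ± 0.39, adjusted p = 0.24). Siglech, named after its values were seen, had 0, 0 and 20.5 CPM in enhancer-null CMP. In wild-type CMP it had 0.984, 3.34 and 0 CPM (edgeR adjusted p = 0.829). Enhancer-null CMP replicate 7, the library with 20.5 CPM, was also the highest of its group for Dntt, Rag1, Rag2 and Il7r. That library was not the highest for Ccr9, Satb1 or Ikzf1. Whether these values are linked was not tested. In LSK the smallest p of the list belonged to Pacsin1, at 0, 0 and 0.584 CPM in the enhancer-null libraries against 1.7, 31.3 and 0.883 CPM in the wild-type libraries (adjusted p = 0.618). The B cell list summed to 43.5 to 60.1 CPM in enhancer-null LSK against 51.9 to 97.4 CPM in wild-type LSK, with the smallest p for Ebf1, at 1.15, 1.45 and 0.0604 CPM in enhancer-null LSK against 0.663, 14.5 and 1.39 CPM in wild-type LSK (adjusted p = 0.775). None of these 3 lists had a member past the test between the genotypes, and their part in the results for Dntt and Ccr9 was not tested.

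Satb1 (chromosome 17, 51736187 to 51833290, minus strand) encodes a nuclear protein that anchors chromatin loops. In LSK it had 516.6, 620.4 and 386.8 CPM in the enhancer-null libraries against 266.1, 411.2 and 230.6 CPM in the wild-type libraries. The enhancer-null libraries were the higher ones, but wild-type replicate 6 stood above enhancer-null replicate 7, so the groups overlapped. The means were 507.9 ± 117.0 CPM and 302.7 ± 95.7 CPM, with a log2 fold change of 0.78 ± 0.27 (95% interval 0.15 to 1.40, adjusted p = 0.519). In CMP, Satb1 had 321.3, 118.6 and 293.2 CPM in the enhancer-null libraries against 171.5, 247.9 and 197.1 CPM in the wild-type libraries, and the groups overlapped (0.26 ± 0.37, adjusted p = 0.855). Within enhancer-null mice it was lower in every CMP library than in any LSK library, at -1.06 ± 0.37 for CMP over LSK (95% interval -1.91 to -0.20, adjusted p = 0.612).

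Ikzf1 (chromosome 11, 11685003 to 11772926, plus strand) had 222.6, 211.5 and 198.1 CPM in enhancer-null CMP against 185.5, 163.6 and 241.7 CPM in wild-type CMP. Its LSK levels were 254.9, 215.8 and 177.3 CPM in the enhancer-null libraries against 197.9, 282.6 and 219.9 CPM in the wild-type libraries. All 12 values lay between 163.6 and 282.6 CPM, and all groups overlapped. The log2 fold change was 0.11 ± 0.20 in CMP (95% interval -0.36 to 0.58, adjusted p = 0.902) and -0.09 ± 0.21 in LSK (95% interval -0.58 to 0.41, adjusted p = 0.945). Between genotypes, a change of Ikzf1 of 1 log2 unit thus lay outside the interval in both cell types. Of 6 relatives and partners of Ikaros and SATB1, 5 were tested in CMP and 3 in LSK, and none passed. The smallest p belonged to Chd4, the remodelling subunit of a complex that Ikaros joins, at 401.2, 324.1 and 350.4 CPM in enhancer-null CMP against 212.9, 221.9 and 185.2 CPM in wild-type CMP (0.81 ± 0.16, adjusted p = 0.0886) and at 0.67 ± 0.19 in LSK (adjusted p = 0.39).

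**Figure D3:**
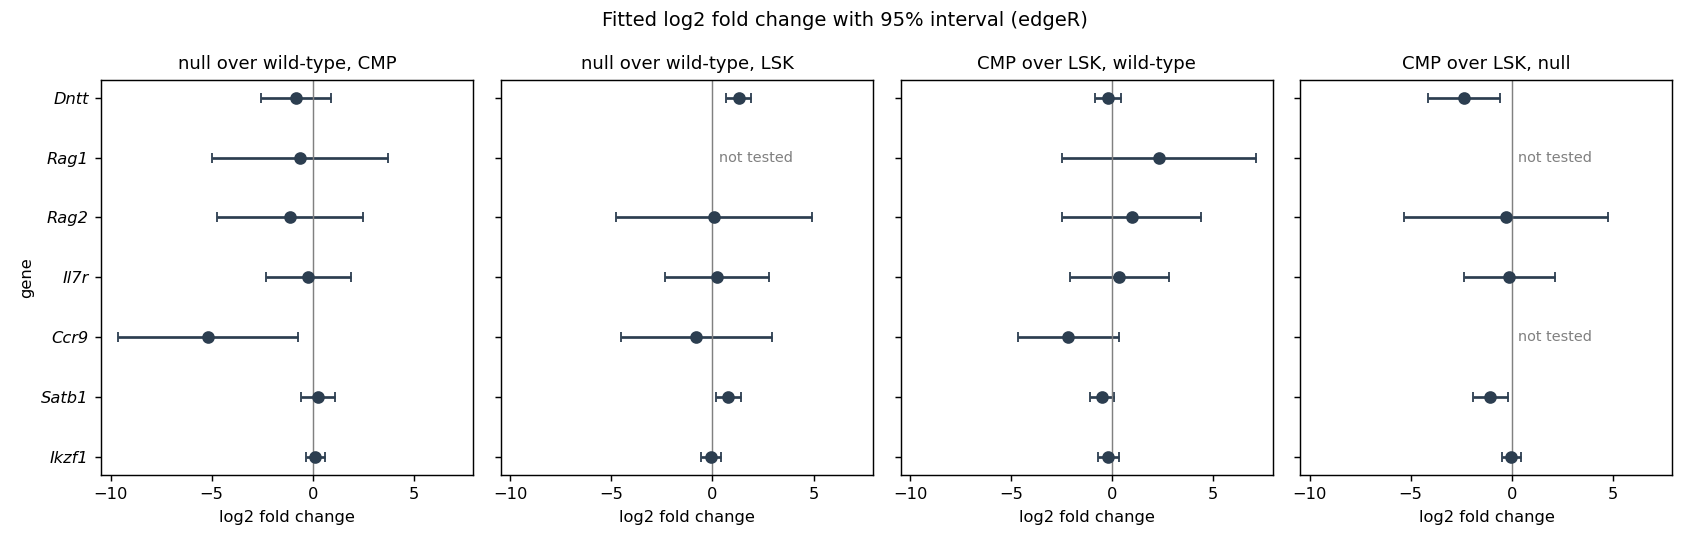
Fitted log2 fold change of each of the 7 genes with its 95% interval (edgeR) in 4 comparisons, enhancer-null over wild-type and CMP over LSK. The interval of Dntt lies above 0 in LSK (0.66 to 1.93), that of Ccr9 lies below 0 in CMP (-9.62 to -0.74), and the intervals of Ikzf1 are the narrowest.

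Counted over the 7 genes, between genotypes in CMP 1 gene was lower in all 3 enhancer-null libraries without overlap (Ccr9), where 12.9% of the genes tested were lower and 10.8% higher in this way. An unadjusted p under 0.05 was reached by 1 of 7 genes in CMP, against 12.6% of all genes. In LSK, 1 gene was higher without overlap (Dntt), where 8.65% of the genes tested were higher and 10.4% lower in this way, and 2 of 6 genes (Dntt and Satb1) reached an unadjusted p under 0.05, against 7.91% of all genes. DESeq2 called 1 gene in CMP (Ccr9) and 1 in LSK (Dntt), where it called 6.89% and 3.16% of all genes. The median log2 fold change of the genes was -0.62 in CMP and 0.15 in LSK, against -0.02 and -0.01 over all genes.

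Between cell types, none of the 7 genes passed in either genotype. In wild-type mice, where 4.2% of all genes passed, none of the 7 reached even an unadjusted p under 0.05 with edgeR (20.5% of all genes did), DESeq2 called none of them (16.6% of all genes), and no gene separated CMP from LSK without overlap (33.3% of all genes did in either direction). In enhancer-null mice, where 0% of all genes passed with edgeR and 3.09% with DESeq2, 2 of 5 genes tested (Dntt and Satb1) reached an unadjusted p under 0.05 (6.92% of all genes) and were lower in CMP without overlap (9.26% of all genes). DESeq2 called none of the 7 there. In the difference between the genotype effects, where 0.292% of all genes passed, none of the 7 did with edgeR or with DESeq2 (2.02% of all genes), and 1 (Dntt) reached an unadjusted p under 0.05 (7.64% of all genes).

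Among other genes of early lymphoid progenitors, 16 of 17 listed were in the joined files. Tcf7, which encodes the T lineage factor TCF-1, was the only one to pass between genotypes. It rose in enhancer-null CMP, to 161.2, 154.9 and 128.2 CPM against 14.2, 20.8 and 16.8 CPM in wild-type CMP (log2 fold change 3.11 ± 0.28, adjusted p = 0.00848). Leaving out any 1 of the 3 wild-type CMP libraries ended that call, with the adjusted p at 0.0523, 0.0548 and 0.0782 without replicates 1, 6 and 8. It rose in enhancer-null LSK too, to 187.3, 230.9 and 92.5 CPM against 0.202, 0.21 and 0.126 CPM in wild-type LSK (9.85 ± 0.56, adjusted p = 0.00299), where the wild-type libraries held 7, 3 and 2 counts. In CMP 11 of 16 genes had positive log2 fold changes (median 0.41), and in LSK 7 of 15 (median -0.31). The list was drawn up with earlier results of these data known.

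Other genes of this list were named after their values were seen. Flt3, a cytokine receptor of lymphoid-leaning progenitors, had 86.7, 24.1 and 95 CPM in enhancer-null CMP against 346.6, 597.1 and 336.3 CPM in wild-type CMP, with no overlap (log2 fold change -2.63 ± 0.52, adjusted p = 0.088). Enhancer-null LSK had 628.6, 444.2 and 535.9 CPM of Flt3 against 869.2, 757.2 and 580.8 CPM in wild-type LSK, with overlap (-0.43 ± 0.19, adjusted p = 0.625). Ly6d, a surface marker of lymphoid progenitors that lean to the B lineage, had 25.6, 28.1 and 24.4 CPM in enhancer-null LSK against 5.76, 0.0698 and 0 CPM in wild-type LSK (3.75 ± 1.82, adjusted p = 0.667). Ly6d did not pass, although the 3 enhancer-null LSK libraries were above the 3 wild-type ones.

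Ltb, which encodes lymphotoxin beta, had 31.4, 16.4 and 14.4 CPM in enhancer-null CMP against 9.56, 3.29 and 7.31 CPM in wild-type CMP, and 32.1, 44 and 39.8 CPM in enhancer-null LSK against 167.9, 115.9 and 112.8 CPM in wild-type LSK. The genotype groups did not overlap in either cell type, with the enhancer-null libraries higher in CMP and lower in LSK. Neither comparison alone passed (1.63 ± 0.82, adjusted p = 0.49, and -1.75 ± 0.28, adjusted p = 0.112), while the difference between them did, at 3.41 ± 0.63 (adjusted p = 0.0485). That call lies at the threshold and was lost under 14 of 17 alternatives, with the adjusted p up to 0.189. For CMP over LSK in wild-type mice, Tcf7 rose by 6.59 on the log2 scale (adjusted p = 0.0176), and Ltb and Cd27, a costimulatory receptor gene, fell by 4.23 and 1.38 (adjusted p = 0.00661 and 0.0361). The call of Ltb was lost without wild-type CMP replicate 8 (adjusted p = 0.0564) and those of Tcf7 and Cd27 without any 1 wild-type library other than LSK replicate 6 (up to 0.125 and 0.144). Cd27 was also lost with a sex covariate (0.0618). No gene of the list passed between the enhancer-null cell types.

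**Figure D4:**
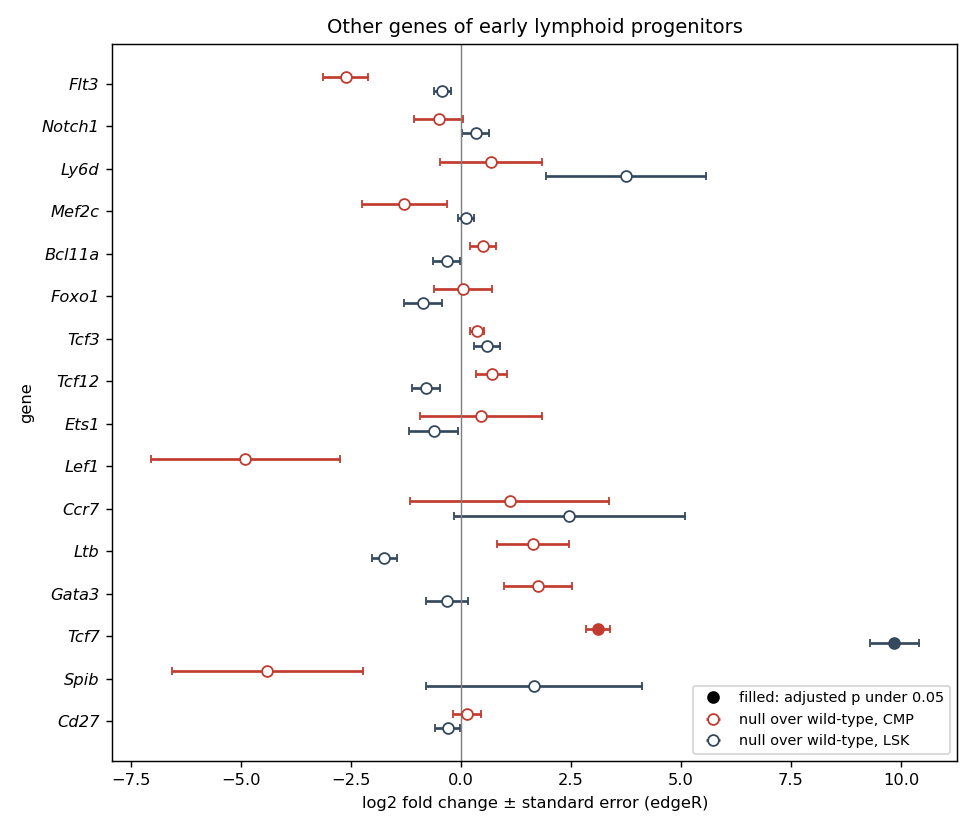
Fitted log2 fold change with its standard error (edgeR) of other early lymphoid genes, enhancer-null over wild-type, in CMP (red) and LSK (dark blue). Filled points passed the test, which holds for Tcf7 alone (3.11 in CMP and 9.85 in LSK); Flt3 in CMP is at -2.63, and Lef1 was not tested in LSK.

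Of 11 partners of V(D)J recombination and end joining, none passed between genotypes, and the median log2 fold change was 0.01 in both cell types. The smallest p belonged to Hmgb2, a DNA-bending protein that assists RAG cutting, at 693.8, 799.1 and 742.0 CPM in enhancer-null CMP against 1322.6, 940.2 and 1110.5 CPM in wild-type CMP (-0.58 ± 0.15, adjusted p = 0.167). In LSK it had 382.7, 487.1 and 477.7 CPM in the enhancer-null libraries against 772.4, 734.6 and 675.5 CPM in the wild-type libraries (-0.67 ± 0.13, adjusted p = 0.168). The enhancer-null libraries were the lower ones in both cell types without overlap. In wild-type mice Hmgb1 and Hmgb2 rose in CMP over LSK, by 0.59 and 0.68 on the log2 scale (adjusted p = 0.0218 and 0.0475). Both calls were lost without any 1 wild-type library other than LSK replicate 6, with the adjusted p up to 0.0937 and 0.159, and that of Hmgb2 also with RLE size factors (0.0521) and with a sex covariate (0.0586).

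Of the CMP marker list, Mpo, the myeloperoxidase of neutrophil granules, passed in LSK. It rose to 1787.3, 2296.0 and 1217.5 CPM in enhancer-null LSK against 448.8, 305.6 and 339.7 CPM in wild-type LSK (2.31 ± 0.26, adjusted p = 0.0396), and without any library other than enhancer-null replicate 7 that call was lost (adjusted p 0.0505 to 0.255). In CMP none of the 8 markers passed, and the smallest p belonged to Mpo, at -0.69 ± 0.13 (adjusted p = 0.0816). Of the 10 LSK markers none passed between genotypes. In CMP the smallest p among them belonged to Cd34, a sialomucin gene of progenitors, at 464.7, 275.0 and 410.6 CPM in the enhancer-null libraries against 902.3, 770.3 and 740.2 CPM in the wild-type libraries (-1.06 ± 0.21, adjusted p = 0.0875). In LSK it belonged to Hoxa9, a homeobox gene of stem and progenitor cells, at 89.6, 52.9 and 104.0 CPM in the enhancer-null libraries against 246.7, 275.1 and 247.7 CPM in the wild-type libraries (-1.62 ± 0.26, adjusted p = 0.113). Summed LSK markers ran from 2544.1 to 2887.0 CPM in enhancer-null LSK against 3819.6 to 4282.4 CPM in wild-type LSK. Among 8 late neutrophil markers none passed between genotypes, Retnlg having the smallest p in CMP (-7.44 ± 1.89, adjusted p = 0.171) and Camp in LSK (-7.52 ± 1.22, adjusted p = 0.113). The part of these marker values in the Dntt and Ccr9 values was not tested.

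Genes with the most similar pattern were sought among 9774 genes by the root mean square difference of centred log2(CPM + 1) over the 12 libraries. For Dntt these were Evl (0.77), Notch1 (0.80) and Maml3 (0.85), where the median over all genes was 1.47. For Rag2 they were Ephb2 (0.41), Glcci1 (0.54) and B3gnt8 (0.60), with a median of 1.85. For Il7r they were Ddx51 (0.58), Tm9sf4 (0.62) and Tex30 (0.64), with a median of 1.26. Ccr9 was nearest to Col4a2 (0.67), Fam160a2 (0.84) and Zfp532 (0.87), with a median of 1.80. Satb1 was nearest to Itpk1 (0.31), Arrdc1 (0.35) and Epb4.1l4b (0.36), with a median of 0.94, and Ikzf1 to Mier1 (0.14), Cggbp1 (0.17) and Gas5 (0.17), with a median of 0.69. A gene without any variation would lie at 1.30 from Dntt, 1.76 from Rag2 and 1.04 from Il7r. From Ccr9 it would lie at 1.69, from Satb1 at 0.65 and from Ikzf1 at 0.21, all below the medians given. None of the 7 genes was among the nearest of another, and Rag1 was below the bound of 5 CPM for this search. For Dntt the nearest genes were much lower in level, with Notch1 at 30.5, 44, 74.7 and 60.7 CPM on average in enhancer-null CMP, wild-type CMP, enhancer-null LSK and wild-type LSK.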

How the data were processed

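Per the labels' protocols, cDNA was made from total RNA with a kit for ultra low input and read as 75 bp pairs. The values that the authors deposited are raw read counts for each gene symbol, in a file for each library. The submitters' processing notes name HTSeq, Bowtie, TopHat and TopHat2 2.0.4, and mm10 as the build. What annotation, counting mode and strand setting were used is not given in the sources used here. No molecular identifiers were used, so that floors and counting intervals cover counting error only.

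Files were joined on 22779 identical symbols and 604 older names in the RefSeq gene table (GRCm38.p6), since the file of wild-type CMP replicate 6 lists other genes. Rows that name no gene (37.2% to 46.9% of counts) were left out, and 0.075% to 0.303% of gene counts were not joined. No 2 files were identical, and replicates differed by more than sampling noise (chi-square over its degrees of freedom 43.1 to 183). Groups and comparisons were tested with edgeR 4.0.16 in R 4.3.3 (robust quasi-likelihood fit, TMM, default filter with a minimum count of 10, Benjamini-Hochberg adjustment over all genes tested, threshold 0.05), each fit holding only the groups it compares. The difference between the genotype effects used all 12 libraries. Standard errors are the fold change divided by the root of F. Levels are CPM scaled by TMM over 12 libraries. The scripts were tested on simulated data. Alternatives were RLE size factors, no filter, DESeq2 1.42.0, a sex covariate, all 12 libraries in 1 fit, a replicate block between cell types and leaving out each library.

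Members and lists were chosen with earlier results of these data known. Named were the 7 genes, of each list up to 4 members that passed a genotype comparison or else the one with the smallest p, and the 3 genes most alike in pattern; the genes said to be named after their values were seen fall outside this rule, as do Cebpa, Ly6a, Pax5, Csf1r in the difference of effects, T and NK markers other than Nkg7 and those given as passing between wild-type cell types only. Gene positions are from GENCODE M21. Whether CMP and LSK libraries with the same number came from the same animal is not given in the labels. The main fits treated them as unpaired. The sex of libraries was read from the counts. A listed gene is not reported here and was left out of its list.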

Additional observations from a re-analysis of the deposited data

Results flagged for a closer look

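The genotype effect differed between CMP and LSK for 4 listed genes by the test of the difference itself (edgeR, adjusted p under 0.05), each value being the log2 fold change in CMP minus that in LSK. Ltb had 3.41 (adjusted p = 0.0485), with the enhancer-null libraries higher in CMP and lower in LSK. Tcf7 had -6.70 (adjusted p = 0.000218), with the enhancer-null libraries higher in both cell types. Its enhancer-null means were 148.1 CPM in CMP and 170.3 CPM in LSK, and its wild-type means 17.2 and 0.179 CPM. The wild-type LSK libraries held only 7, 3 and 2 counts of Tcf7, so the size of this difference rests on values near the floor. Mpo had -2.96 (adjusted p = 0.000733), with the enhancer-null libraries lower in CMP and higher in LSK. Csf1r, a macrophage growth factor receptor gene, had -5.77 (adjusted p = 0.0183), at 4.85, 22.8 and 22.7 CPM in enhancer-null CMP against 98.3, 175.3 and 141.5 CPM in wild-type CMP, and 81.1, 40 and 22.8 CPM in enhancer-null LSK against 10.3, 4.96 and 6.06 CPM in wild-type LSK. Over 17 alternatives the adjusted p ran up to 0.00676 for Tcf7, 0.0253 for Mpo, 0.193 for Csf1r and 0.189 for Ltb. None of the 7 lymphoid priming genes was among them.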

How the results depend on the processing

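Of 406 values of the 7 genes under the alternatives (32 results), 378 kept their direction and their side of the threshold, 3 passed that had not (Ccr9 in CMP and Dntt in LSK with DESeq2, and Ccr9 for CMP over LSK in wild-type mice without wild-type LSK replicate 6) and 25 changed sign, none of them past the test; the cause was not tested. DESeq2 called 1 of the 7 genes in CMP and 1 in LSK, and leaving out libraries called 0 to 1 between wild-type cell types. On leaving out 1 library, the log2 fold changes with a change of sign ranged, between genotypes in CMP, over -1.42 to 0.17 for Il7r, -0.01 to 0.59 for Satb1 and -0.01 to 0.27 for Ikzf1. In LSK they ranged over -1.25 to 0.73 for Rag2, -0.35 to 1.98 for Il7r and -0.22 to 0.08 for Ikzf1. For CMP over LSK in wild-type mice Dntt ranged over -0.40 to 0.02 and Il7r over -0.18 to 2.14, and in enhancer-null mice Rag2 over -1.81 to 1.04, Il7r over -1.29 to 0.30 and Ikzf1 over -0.14 to 0.09. In the difference of the genotype effects Rag1 ranged over -6.33 to 4.78, Rag2 over -2.73 to 0.14 and Il7r over -2.18 to 0.01. With the sex covariate Rag2 in LSK was at -0.09.

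Counts of all genes past the test moved more. In CMP (69 genes) there were 270 without a filter, 895 with DESeq2, 31 with the sex covariate, 232 with all 12 libraries and 7 to 92 on leaving out a library. In LSK (12) there were 39, 392, 3, 26 and 1 to 21 in the same order. Between wild-type cell types (505) there were 2110 with DESeq2, 285 with the sex covariate and 54 to 880 without a library, and between enhancer-null cell types (0, with 780 at an unadjusted p under 0.05) 9 without a filter, 366 with DESeq2 and 37 with all 12 libraries. In the difference of genotype effects (37) there were 68 without a filter, 254 with DESeq2 and 12 to 107 without a library.

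Deviations of same-numbered CMP and LSK libraries correlated at 0.0489, -0.00507 and 0.0437 in enhancer-null mice over 10187 genes. In wild-type mice the values were 0.093, -0.0352 and 0.0504. Such deviations, taken from a mean of 3 libraries, cannot exclude that equal numbers mark the same animal. Same-numbered libraries were alike in sex, and replicate 1 had the highest late neutrophil sum in both wild-type groups. The paired fit is given only here. With the replicate block 132 genes passed between wild-type cell types and 7 in the difference of genotype effects, Rag2 for CMP over LSK in enhancer-null mice turned to 1.05, and no call of the 7 genes changed. Of the other genes named, Tcf7, Cd27, Jak3, Hmgb1 and Hmgb2 between wild-type cell types, and Ltb and Csf1r in the difference of genotype effects, lost their calls under the block. No paired analysis was run between genotypes, because no label pairs an enhancer-null library with a wild-type one. Counting precision is low where a group held few counts, such as 3 for Ccr9 in enhancer-null CMP and 30 for Rag1 in wild-type LSK.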
